A study of Mus musculus with 201 samples.

Results

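Arc is the gene for the activity-regulated cytoskeleton-associated protein, and its RNA was followed here through 1 gene row in each of 3 expression tables of mouse dentate granule cells, out of 42790 gene symbols in the whole-cell table. It was selected on its own measured pattern in earlier results of these samples, so its levels and detection are given as a description and carry no test. The 201 samples were each 1 cell or 1 nucleus. Arc was read in 40 of 48 FOS+ nuclei, 41 of 48 FOS- nuclei, 23 of 23 home cage (HC) nuclei, 38 of 47 whole cells from saline-treated mice and 30 of 35 whole cells from PTZ-treated mice, and the others had too few counts or genes.

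The nuclei came from C57BL/6 mice, female and 8 weeks of age in the study's methods. In the NE set a mouse spent 15 min in an environment unfamiliar to it and 1 h back in its cage, and its granule cell nuclei were stained for the transcription factor PROX1 and for FOS protein and sorted as Prox1+/Fos+ or Prox1+/Fos-. The HC nuclei were taken as NeuN+/Prox1+ from a mouse that stayed in its cage. The whole cells came from Prox1-GFP mice, in which a green fluorescent protein is driven by the Prox1 promoter, 1 h after an injection of saline or of 50 mg per kg pentylenetetrazole (PTZ), a GABA(A) receptor antagonist that causes seizures. Hippocampi of the mice of a treatment (2 in the study's text) were pooled, dissociated with the protease papain and sorted as GFP+. Whole cells and NE nuclei were amplified by Smart-seq2 and HC nuclei on a Fluidigm C1 chip, and the NE nuclei were read as single 50-base reads while the others were read as paired 100-base reads. No label ties a cell to an animal, so cells are not replicates of a treatment: the errors below are spreads between cells, and intervals of shares (exact Clopper-Pearson, 95%) and of summed counts (exact Poisson, 95%) cover counting error only. The titles of PTZ and saline cells also end in different codes, which the labels do not explain, and each treatment was 1 pool, so that treatment, pool and whatever the codes stand for cannot be told apart.

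Arc is an immediate early gene (IEG), a class of genes transcribed within minutes of synaptic activity without new protein synthesis. Its promoter and upstream enhancers respond to calcium and cAMP signals through factors such as CREB, MEF2 and SRF, its mRNA is carried into dendrites and degraded after translation there, and the ARC protein recruits endocytic machinery that removes AMPA-type glutamate receptors from synapses. The coding sequence descends from the gag gene of a retrotransposon, and ARC can assemble into capsid-like particles. In the dentate gyrus, Arc is a standard marker of the few granule cells that were active during an experience.

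In the GRCm38 assembly, Arc (ENSMUSG00000022602) lies on the minus strand of chromosome 15 from 74669083 to 74672570 (GENCODE M21). It has 2 annotated protein-coding transcripts of 3 exons each, with exon lengths of 3055 and 3054 bases. The whole coding sequence, 1188 bases or 396 codons without the stop, is in exon 1 between 74671185 and 74672372. The other 2 exons are wholly 3′ untranslated, so both introns lie behind the stop codon, a layout known to make Arc mRNA a target of nonsense-mediated decay. The tables give 1 value per gene, so spliced and unspliced Arc were not separated.

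The granule cell label was checked first. Prox1 was above 1 TPM (a transcripts-per-million value, a level scaled for gene length and depth), the limit of detection used throughout, in 38 of 38 saline cells, 30 of 30 PTZ cells, 33 of 40 FOS+ nuclei, 34 of 41 FOS- nuclei and 14 of 23 HC nuclei. Rbfox3, the gene for NeuN, was detected in 33, 27, 30, 31 and 11 of them. Total expected counts ran from 63775 to 1060520 in the NE nuclei, from 107647 to 278779 in the HC nuclei and from 67212 to 5129240 in the whole cells. Counting the genes above 1 TPM gave 6185 ± 1398 in FOS+ nuclei, 6281 ± 1539 in FOS- nuclei and 3237 ± 371 in HC nuclei (mean ± SD between nuclei). In 1 PTZ cell, 1 FOS- nucleus and 5 HC nuclei the summed TPM of another cell type's markers exceeded that of the 5 granule cell markers, and none of these 7 held Arc above 1 TPM. In whole cells the interneuron markers Gad2, Sst, Pvalb and Vip, the oligodendrocyte precursor markers Pdgfra, Cspg4 and Olig2 and the microglial markers Cx3cr1, C1qa, C1qb and Aif1 were at or below 1 TPM in every cell. The remaining interneuron marker, Gad1, was above 1 TPM in 33 of 38 saline and 21 of 30 PTZ cells. The remaining microglial marker, Csf1r, was above it in 1 cell of each treatment. The oligodendrocyte marker Mbp was above it in 25 saline and 16 PTZ cells. The astrocyte marker Slc1a3 was so in 8 and 6 of them, and the endothelial marker Pecam1 in 18 and 11. In FOS+ and FOS- nuclei Cx3cr1 was above 1 TPM in 29 of 40 and 33 of 41, Slc1a3 in 31 and 25 and Mag in 23 and 14. Gad1 was above it there in 19 and 15 and Gad2 in 14 and 7. Pvalb, Aldh1l1, Olig2, C1qa, Aif1 and Cldn5 were so in none of these nuclei. Of the granule cell markers, Calb1 was above it in 40 and 41, C1ql2 in 18 and 25 and Dsp in 11 and 9. Across FOS+ nuclei Arc had a rho of -0.38 with the summed granule cell markers and of 0.30 with the summed interneuron markers; the part of either in the Arc values was not tested.

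Arc was abundant in most FOS+ nuclei and close to absent from FOS- and HC nuclei. Among the 40 FOS+ nuclei the level ran from 0 to 2053 TPM with a median of 430 TPM. Among the 41 FOS- nuclei the highest value was 1.94 TPM and 38 nuclei were at 0. Among the 23 HC nuclei 22 were at 0 and the remaining nucleus was at 3.87 TPM. In the whole cells both treatments held Arc: the 38 saline cells ran from 0 to 3361 TPM with a median of 0.69 TPM, and the 30 PTZ cells from 0 to 2337 TPM with a median of 0.58 TPM. The FOS+ and FOS- nuclei overlapped only at the bottom, 30 of 40 FOS+ nuclei being above the highest FOS- nucleus, whereas the saline and PTZ cells overlapped over nearly the whole range, with 2 saline cells above the highest PTZ cell.

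**Figure D1:**
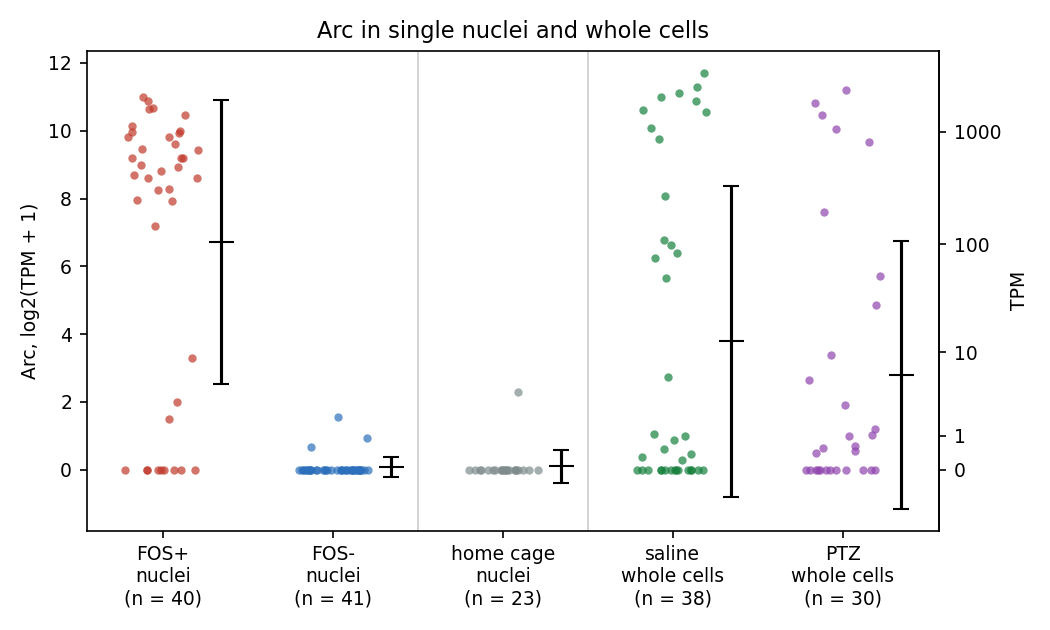
Arc in each kept cell or nucleus as log2(TPM + 1) on the left axis and TPM on the right axis; points are single cells or nuclei, black bars are the mean ± SD between cells, and grey lines separate the 3 tables, whose levels are shown side by side only. Of the 40 FOS+ nuclei 28 lie between 145 and 2053 TPM, no FOS- or HC nucleus exceeds 3.87 TPM, and the saline and PTZ cells spread from 0 to over 2000 TPM.

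On the log2(TPM + 1) scale Arc averaged 6.71 ± 4.19 in FOS+ nuclei (SD, n = 40), 3.79 ± 4.59 in saline cells (n = 38), 2.80 ± 3.95 in PTZ cells (n = 30), 0.10 ± 0.48 in HC nuclei (n = 23) and 0.08 ± 0.30 in FOS- nuclei (n = 41). In this order the saline and PTZ means, and the HC and FOS- means, lay well within 1 SD of each other. Levels from different tables are side by side only, since the platform, the read length, the strain and, for cells against nuclei, the compartment differed. Detected shares followed a similar order. Arc was above 1 TPM in 31 of 40 FOS+ nuclei (77.5%, interval 61.5 to 89.2%), 14 of 30 PTZ cells (46.7%, 28.3 to 65.7%), 17 of 38 saline cells (44.7%, 28.6 to 61.7%), 1 of 23 HC nuclei (4.35%, 0.11 to 21.9%) and 1 of 41 FOS- nuclei (2.44%, 0.062 to 12.9%). The intervals of the PTZ and saline cells overlapped, and so did those of the HC and FOS- nuclei. After each cell had been thinned to 50000 counts, at least 1 Arc count remained in 30 of 40 FOS+ nuclei, 15 of 38 saline cells, 11 of 30 PTZ cells, 1 of 23 HC nuclei and 0 of 41 FOS- nuclei.

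Arc levels in cells with Arc were high in FOS+ nuclei and wide-ranging in whole cells. The FOS+ nuclei fell into 2 classes with an empty range between them: 28 nuclei (70.0%, interval 53.5 to 83.4%) held 145 to 2053 TPM, with 46 to 2856 Arc counts each, and the other 12 held at most 8.77 TPM and at most 2 counts. Arc made up a median of 0.131% of all counts in the 28 nuclei and at most 0.365%, and ranked at a median of 255.5 among all genes by TPM, at best rank 43. In saline cells 11 of 38 were above 100 TPM, from 109 to 3361 TPM, and 6 more were between 1.07 and 97.8 TPM. In PTZ cells 6 of 30 were above 100 TPM, from 192 to 2337 TPM, and 8 more, the larger part of the 14 with Arc, were between 1.01 and 51.2 TPM, 4 of them at 1.01 to 2.73 TPM on 1 to 4 counts. Those at 5.29 and 9.47 TPM rested on 1 count each and that at 51.2 TPM on 6 counts. In these whole cells above 100 TPM Arc took a median of 0.250% (saline) and 0.219% (PTZ) of the counts and reached rank 20 and rank 37 at best. Whole cells thus filled part of the range between 8.77 and 145 TPM in which no FOS+ nucleus lay.

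Summed counts give the level in the FOS- nuclei that single nuclei could not. Their 41 libraries held 4 Arc counts in all (interval 1.09 to 10.2), or 0.286 CPM, the counts-per-million value of the pooled libraries (0.0781 to 0.734). The 40 FOS+ libraries, sorted from the same preparation, summed to 18108 Arc counts, or 1253 CPM (1234 to 1271). The 23 HC libraries held 1 count in all (0.0253 to 5.57), or 0.256 CPM. The difference in mean log2(TPM + 1) between FOS+ and FOS- nuclei was 6.63, and Arc had the highest difference of the 13214 genes compared. FOS protein was the gate that made these groups, so that the values describe nuclei chosen for FOS; Arc itself took no part in the sort.

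The NE nuclei had been amplified under 4 conditions, combinations of a template-switching oligonucleotide (TSO) at 1 or 10 µM and ERCC spike-in RNA at a dilution of 1:200 or 1:2000, and the share of Arc-high FOS+ nuclei varied among them. At 1 µM TSO and ERCC 1:200 all 10 FOS+ nuclei held Arc, from 246 to 2053 TPM with a median of 513 TPM. At 1 µM and 1:2000, 5 of 8 were above 100 TPM, with a range of 0 to 1897 TPM and a median of 637 TPM. At 10 µM and 1:200 only 4 of 11 were, with a range of 0 to 907 TPM and a median of 0 TPM. At 10 µM and 1:2000, 9 of 11 were, with a range of 0 to 1622 TPM and a median of 505 TPM. FOS- nuclei stayed at or under 1.94 TPM in each condition. The FOS+ minus FOS- difference in mean log2(TPM + 1) was therefore positive in all 4 conditions, at 9.26, 6.60, 3.35 and 7.60 in the order given. The exact intervals of the shares above 100 TPM, from 69.2 to 100% at 1 µM and 1:200 and from 10.9 to 69.2% at 10 µM and 1:200, met at one end. Total counts moved with this too: the 28 Arc-high nuclei had a median total of 286792 counts and the other 12 a median of 197252, and Arc followed the total count across the 40 nuclei with a Spearman rho of 0.38 but not the number of genes, with a rho of -0.08. The part of amplification or depth in the 12 low nuclei was not tested.

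**Figure D2:**
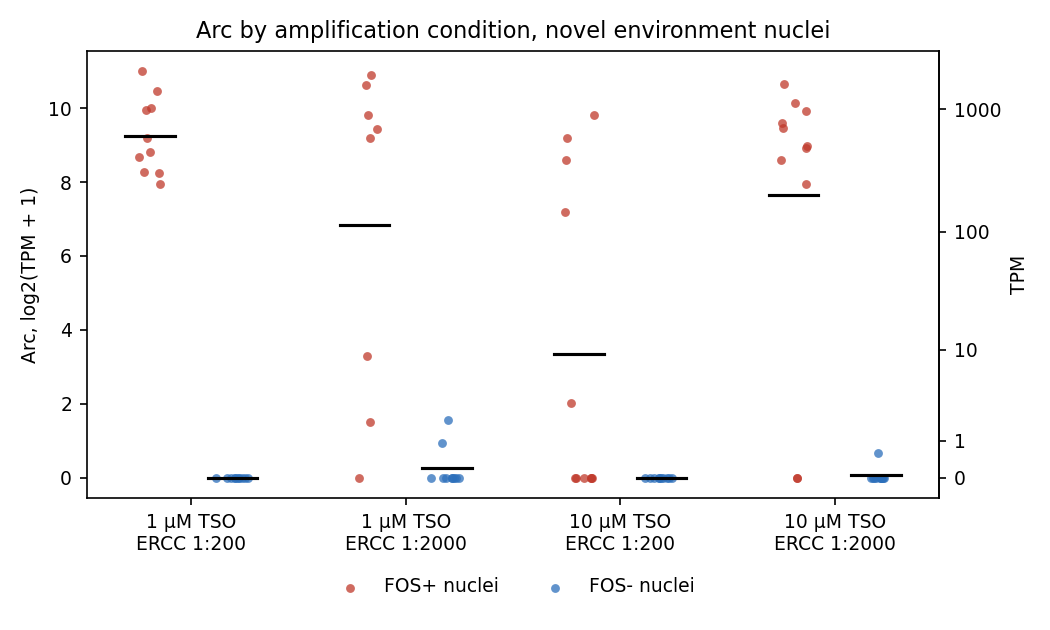
Arc as log2(TPM + 1), with TPM on the right axis, in FOS+ (red) and FOS- (blue) nuclei of the 4 amplification conditions; points are nuclei and black lines are means. All 10 FOS+ nuclei at 1 µM TSO and ERCC 1:200 lie between 246 and 2053 TPM, while at 10 µM and 1:200 only 4 of 11 are above 100 TPM.

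In whole cells the Arc levels of the treatments overlapped. The PTZ minus saline difference in mean log2(TPM + 1) was -0.998, against SDs of 3.95 and 4.59 between cells, and ranked 10281 from the top among the 11455 genes compared. It lay at the limit of 1 log2 unit used below: leaving out single cells gave -1.29 to -0.78, past the limit for 9 of 30 PTZ cells and 23 of 38 saline cells. Detection above 1 TPM differed by 1.93 percentage points and detection above 100 TPM by -8.95 points (PTZ minus saline), so the readings had opposite signs, and both were smaller than the intervals of the shares. Summed counts, in which larger libraries weigh more, were higher in PTZ cells. They gave 879 CPM (interval 870 to 888) in PTZ and 709 CPM (701 to 717) in saline cells. The Arc-high PTZ cells had more detected genes: the 6 PTZ cells above 100 TPM had a median of 8339 detected genes and the 24 others 5236. Across the 30 PTZ cells Arc followed the number of detected genes with a rho of 0.59, against 0.27 in the 38 saline cells. Whether depth or cell quality had a part in the PTZ values was not tested.

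Fos, Egr1 and Arc, the 3 early genes most often used as activity markers, were only partly on in the same cells. In the FOS+ nuclei, 9 of 40 held all 3 mRNAs, 16 held Arc alone, 3 held Arc with Fos, 3 held Arc with Egr1, 1 held Egr1 alone and 8 held none. Arc RNA was thus found in 31 of the nuclei sorted for FOS protein and Fos RNA in 12, each of which also held Arc. In the FOS- nuclei 32 of 41 held none of the 3, 5 held Egr1 alone, 3 Fos alone and 1 Arc alone. Of the saline cells, 16 of 38 held all 3, 11 held Fos and Egr1 without Arc, 3 Fos alone, 2 Egr1 alone, 1 Arc with Egr1 and 5 none. Of the PTZ cells, 10 of 30 held all 3, 8 Fos and Egr1 without Arc, 6 Fos alone, 2 Arc with Fos, 2 Arc alone and 2 none. Fos was thus present in 16 of 17 saline cells with Arc and 14 of 21 without, and in 12 of 14 PTZ cells with Arc and 14 of 16 without. In whole cells more cells held Fos than Arc, and in FOS+ nuclei more held Arc than Fos.

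Most early genes were found more often where Arc was. Of 34 early genes, 18 transcription factors and 16 effectors, 33 were detected in a larger share of FOS+ nuclei with Arc than of FOS+ nuclei without it, 32 in saline cells and 32 in PTZ cells. Among all genes detected in a group the corresponding share was 55.2% in FOS+ nuclei, 61.2% in saline cells and 78.6% in PTZ cells. Gene number moved with this in whole cells. The 14 PTZ cells with Arc had 7342 ± 2532 detected genes and the 16 without had 5186 ± 1225 (SD). The 17 saline cells with Arc had 6705 ± 707 and the 21 without 5922 ± 1100. In FOS+ nuclei the 31 with Arc had 6177 ± 1238 and the 9 without 6214 ± 1943. The part of gene number was not tested. The genes that went the other way were Klf4 in FOS+ nuclei, Pim1 and Rheb in saline cells and Fos and Egr3 in PTZ cells. Fosb, an AP-1 subunit, was in 19 of 31 FOS+ nuclei with Arc and in 0 of 9 without, in 15 of 17 saline cells with and 6 of 21 without, and in 10 of 14 PTZ cells with and 3 of 16 without. Egr4, a zinc-finger factor, was in 13 of 31 and 0 of 9 FOS+ nuclei, 16 of 17 and 5 of 21 saline cells, and 7 of 14 and 2 of 16 PTZ cells. Pim1, a kinase gene, was common in FOS+ nuclei, in 28 of 31 with Arc and 1 of 9 without. It was rare in FOS- nuclei (1 of 41), saline cells (3 of 38) and PTZ cells (1 of 30). Ptgs2 makes the prostaglandin enzyme COX-2 and Inhba an activin subunit. These 2 were detected in 24 and 29 of 40 FOS+ nuclei and in 2 and 10 of 41 FOS- nuclei. Among whole cells, which were not sorted for FOS, they were in 2 and 5 of 38 saline and 6 and 2 of 30 PTZ cells.

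**Figure D3:**
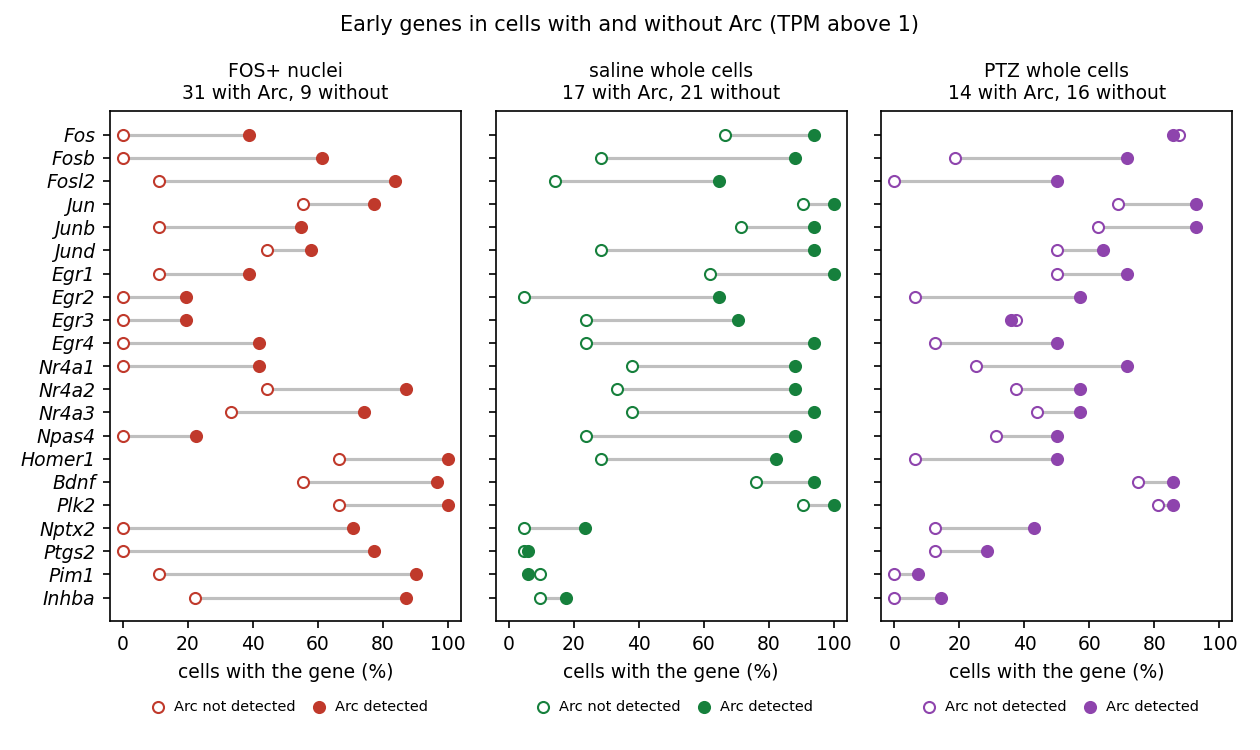
Share of cells (%) with each of 21 early genes, a selection from the 34, above 1 TPM. Filled points are cells with Arc and open points cells without Arc, for FOS+ nuclei, saline cells and PTZ cells. In FOS+ nuclei all 21 filled points lie to the right of the open points. Fos and Egr3 in PTZ cells and Pim1 in saline cells are the exceptions elsewhere. Klf4, which went the other way in FOS+ nuclei, and Rheb, which did in saline cells, are not among the genes shown.

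The genes whose level followed Arc most closely across cells were mostly early genes. Correlations were computed over the 5566 genes detected in at least 25% of the kept cells of each of the FOS+, saline and PTZ groups. The points are single cells, which within a group share animals and differ in depth, and the values are a description. By the mean of the 3 Spearman rhos, the 10 genes most like Arc were Egr4 (0.47 in 40 FOS+ nuclei, 0.83 in 38 saline cells and 0.69 in 30 PTZ cells), Fosb (0.55, 0.72 and 0.58), 1700016P03Rik (0.55, 0.80 and 0.46), Nr4a1 (0.58, 0.74 and 0.45), Plk2 (0.66, 0.67 and 0.32), Ankrd33b (0.57, 0.60 and 0.44), Pcdh8 (0.64, 0.55 and 0.42), Junb (0.31, 0.72 and 0.56), Homer1 (0.55, 0.50 and 0.54) and Btg2 (0.38, 0.74 and 0.44). Nr4a1 encodes an orphan nuclear receptor, Plk2 a polo-like kinase active at synapses, Pcdh8 an activity-induced protocadherin, Junb an AP-1 subunit, Homer1 a postsynaptic scaffold and Btg2 an antiproliferative early gene. For comparison, the median rho of all 5566 genes was -0.02, 0.04 and 0.17 in the 3 groups, and 23.0% of them were positive in all 3. Given the number of detected genes, the partial rho of Egr4 was 0.48, 0.82 and 0.56, while in PTZ cells it came to 0.12 for Ankrd33b (from 0.44), 0.17 for Plk2 (from 0.32), 0.18 for Pcdh8 (from 0.42) and 0.22 for 1700016P03Rik (from 0.46). Among only the cells with Arc above 1 TPM, Egr4 was again first at 0.31 in 31 FOS+ nuclei, 0.55 in 17 saline cells and 0.92 in 14 PTZ cells, and Ankrd33b was at rank 322 by mean rho. A step between high and low Arc remained among these cells. Of the 14 PTZ cells 6 were above 100 TPM and 8 at or below 51.2 TPM. Egr4 was detected in each of those 6 and in 7 of the 14. Of the 31 FOS+ nuclei 3 were at or below 8.77 TPM.

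**Figure D4:**
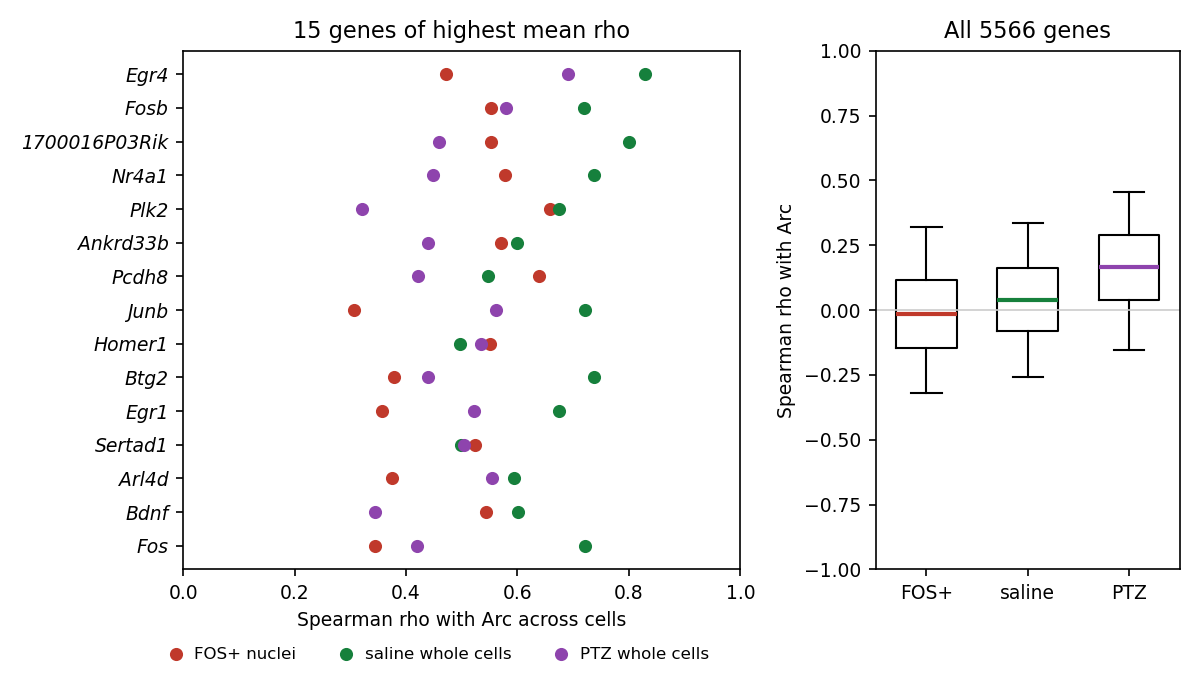
Left, Spearman rho with Arc across FOS+ nuclei (red), saline cells (green) and PTZ cells (purple) for the 15 genes of highest mean rho; right, rho of all 5566 genes as boxes (median and quartiles) with whiskers from the 5th to the 95th percentile. Egr4 reaches 0.83 in saline cells, and the box of the PTZ cells sits higher, at a median of 0.17.

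Read group by group among the same 5566 genes, the neighbours of Arc differed. Early genes detected in under 25% of the cells of another group were left out. Pim1 (0.695 in FOS+ nuclei), Npas4 (0.756 in saline cells) and Dusp6 (0.675 in PTZ cells) were among them. Each was above at least 1 of the 5 genes named here for that group. In FOS+ nuclei the 5 highest were Plk2, Rbbp7, Pcdh8, Gpr22 and Dclk1, at 0.66 to 0.62, and of these Rbbp7 was at -0.12 and -0.24 in saline and PTZ cells. In saline cells they were Egr4, 1700016P03Rik, Nr4a3, Nr4a1 and Btg2, at 0.83 to 0.74. In PTZ cells they were Amigo1, Egr4, Zkscan3, Fam53b and Zik1, at 0.69 to 0.67, and Amigo1 was at -0.35 in FOS+ nuclei. The 50 genes highest in saline cells had a median rho of 0.31 in FOS+ nuclei, 42 of them positive against 46.4% of all genes, and of 0.33 in PTZ cells, 49 positive against 80.6%. In the reverse direction the values were lower. The 50 genes highest in FOS+ nuclei had a median of 0.16 in saline cells, 39 positive against 58.8% of all genes. Their median in PTZ cells was 0.23, 45 positive against 80.6%. The 50 highest in PTZ cells had a median of -0.01 in FOS+ nuclei, 23 positive against 46.4%. In saline cells their median was 0.13, 35 positive against 58.8%. Of these lists of 50, the FOS+ and saline lists shared 13 genes, the saline and PTZ lists 2 and the FOS+ and PTZ lists 1. Each list holds 50 of the 5566 genes, so few shared genes would arise at that share alone. The counts of 1 and 2 are thus a description. Of the 18 early transcription factors, 10 were among the 5566 genes. All 10 had a positive rho in all 3 groups, with medians of 0.42 in FOS+ nuclei, 0.72 in saline cells and 0.43 in PTZ cells. Of the 16 early effectors 8 were among the 5566 genes, with medians of 0.55, 0.46 and 0.33. All 8 were positive in FOS+ nuclei and in PTZ cells and 7 in saline cells, where Rheb was at -0.04.

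The promoters of the genes that followed Arc most closely are shown so that their start regions can be compared. Of the 10 genes most like Arc, 9 had a RefSeq promoter entry (GRCm38.p6), Homer1 with 2. The 250 bases before the start of the 4 highest with an entry, written 5′ to 3′ along the gene, follow for Egr4 (chr6:85513590-85513839, minus strand), Fosb (chr7:19310046-19310295, minus), Nr4a1 (chr15:101266596-101266845, plus) and Plk2 (chr13:110394794-110395043, plus). Capitals mark a cAMP response element (CRE) half-site, TGACG on either strand, or a TATA box, searched as TATAA on either strand.
Egr4: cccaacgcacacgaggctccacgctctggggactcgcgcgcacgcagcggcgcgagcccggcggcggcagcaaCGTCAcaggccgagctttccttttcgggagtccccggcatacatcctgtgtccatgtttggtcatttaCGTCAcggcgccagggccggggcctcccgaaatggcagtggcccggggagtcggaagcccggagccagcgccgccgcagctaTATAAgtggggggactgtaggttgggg
Fosb: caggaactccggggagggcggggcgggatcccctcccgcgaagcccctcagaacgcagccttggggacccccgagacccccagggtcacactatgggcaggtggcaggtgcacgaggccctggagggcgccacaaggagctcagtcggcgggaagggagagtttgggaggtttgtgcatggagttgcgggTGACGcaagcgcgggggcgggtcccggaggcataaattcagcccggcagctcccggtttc
Nr4a1: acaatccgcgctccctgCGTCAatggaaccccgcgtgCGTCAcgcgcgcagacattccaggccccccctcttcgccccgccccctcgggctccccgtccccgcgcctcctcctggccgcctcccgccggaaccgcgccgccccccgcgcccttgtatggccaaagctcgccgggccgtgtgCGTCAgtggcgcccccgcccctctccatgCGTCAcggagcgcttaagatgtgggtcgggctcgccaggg
Plk2: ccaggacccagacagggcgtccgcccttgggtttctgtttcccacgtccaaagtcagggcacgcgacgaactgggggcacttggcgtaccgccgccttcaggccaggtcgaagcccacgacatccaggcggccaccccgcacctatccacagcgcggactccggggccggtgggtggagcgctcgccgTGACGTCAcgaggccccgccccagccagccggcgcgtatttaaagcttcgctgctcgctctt
The half-site was in the promoters of 8 of the 9 genes, Egr4, Fosb, Nr4a1, Plk2, Ankrd33b, Junb, Homer1 and Btg2, and in 17.8% of the 32851 promoters of the table. Nr4a1 held 4 of them, Homer1 3 and Egr4 2. The full CRE, TGACGTCA, which contains a half-site on each strand, was in Plk2 and Btg2 and in 1.55% of all promoters. TATAA was in Egr4 and Pcdh8 and in 22.8% of all, and the E-box, CANNTG, was in Fosb, Plk2, Junb and Homer1 and in 66.2% of all. The CArG box, bound by SRF, and the AP-1 site TGANTCA were in none of the 9, against 1.47% and 6.75% of all promoters. The half-site was added to the search after the values were seen, and these promoters had a median GC content of 67.2%, against 52.4% over the table. A match of letters is not a binding site.

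Beyond the early genes, 5 lists around Arc were read in both comparisons. A gene counted as higher or lower if its group means differed by at least 1 log2 unit and, for nuclei, had the same sign in all 4 amplification conditions. Among all genes with TPM above 1 in at least 10 cells, 4.21% were higher and 5.28% lower in FOS+ than in FOS- nuclei (13214 genes), and 4.72% were higher and 10.2% lower in PTZ than in saline cells (11455 genes). The median gene differed by -0.11 in each comparison. Early genes near 0 in FOS- nuclei could enter this comparison only through the FOS+ group, so their counts are a description. Of the 18 early transcription factors, 12 were read in nuclei and 11 were higher in FOS+ nuclei, with a median difference of 2.31; Jund, at 0.64, was the exception. Nr4a2 had the largest, at 5.06 ± 3.54 against 0.50 ± 0.99 log2(TPM + 1). Of the 16 effectors 13 were read and 13 were higher, with a median difference of 4.14, led by Plk2 at 8.08 ± 3.56 against 2.03 ± 2.65, Inhba at 6.13 ± 4.49 against 1.16 ± 2.26 and Pim1 at 4.84 ± 3.33 against 0.07 ± 0.35. None of these equalled the difference of 6.63 of Arc.

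In whole cells early genes other than Dusp1 were lower in PTZ than in saline cells or did not pass. Of 17 early transcription factors read, 9 were lower in PTZ than in saline cells and 0 were higher, against 10.2% and 4.72% of all genes. Their median difference was -1.08. Junb was at 5.24 ± 4.36 in PTZ and 7.48 ± 4.52 in saline cells, Egr1 at 4.34 ± 4.30 and 6.45 ± 4.43, Npas4, a neuron-specific early factor, at 2.77 ± 3.91 and 4.59 ± 4.94, and Fosb at 2.95 ± 3.62 and 4.6 ± 4.35. Nr4a2, at -1.08, did not pass with the PTZ cell rich in astrocyte markers left out (-0.98). Fos differed by -0.46. Past the limit, the other sign was seen in 1 effector. Of 12 effectors read, Rgs2, Rheb, Plk2 and Homer1 were lower in PTZ cells, by -1.92, -1.39, -1.23 and -1.19, and Dusp1, a phosphatase gene, was higher by 1.58. In each case the spread between cells was larger than the difference.

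No regulator passed in nuclei. Of 15 regulators of Arc transcription, such as Creb1, the MEF2 factors, Srf and its co-activators, 0 were higher and 0 lower between FOS+ and FOS- nuclei. Of all genes 4.21% were higher and 5.28% lower, so that few of 15 would pass at those shares. The median difference of the regulators was 0.03. Hdac5, a histone deacetylase that represses MEF2 targets, differed most, by 1.54, but not with 1 sign in all conditions, followed by Elk1 at -1.17 and Ep300, a histone acetyltransferase gene, at -0.85. In whole cells 4 of the 15, Hdac5, Mkl1, Hdac3 and Mef2d, were lower in PTZ cells, by -1.39, -1.28, -1.10 and -1.05, and 0 were higher. Of all genes 10.2% were lower and 4.72% higher. Hdac3 did not pass without the PTZ cell rich in astrocyte markers (-0.93), and Srf then did (-1.06).

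Of the 24 genes for partners of ARC at the synapse and in endocytosis, 23 were read in nuclei, 2 were higher and 2 lower in FOS+ nuclei, against 4.21% and 5.28% of all genes, so that few members passed in either direction. The higher ones were Ap2b1 and Cltc. Ap2b1, the beta subunit of the AP-2 adaptor, was at 6.87 ± 2.87 against 2.06 ± 2.27 log2(TPM + 1), and Cltc, clathrin heavy chain, at 7.55 ± 2.58 against 3.36 ± 2.93. Ap2b1 was detected in 38 of 40 FOS+ and 23 of 41 FOS- nuclei, and Cltc in 37 and 29. The other subunits of the same adaptor did not pass: Ap2a2 differed by 1.18, Ap2s1 by 0.38, Ap2m1 by -0.60 and Ap2a1 by -1.12. Within the FOS+ nuclei, Cltc and Ap2b1 followed Arc with a rho of 0.55 and 0.46, while in saline cells the rho was -0.23 and -0.01. The lower ones were Dnm1, the vesicle-scission GTPase dynamin, at 3.34 ± 3.32 against 5.77 ± 3.64, and Gria2, an AMPA receptor subunit, at 9.34 ± 2.14 against 10.4 ± 0.78. The Gria2 difference sat at the limit and did not pass, at -0.98, without the FOS- nucleus whose summed interneuron markers exceeded its granule cell markers. On the log2(CPM + 1) scale with TMM factors neither Dnm1 nor Gria2 passed. In whole cells 3 of 24 partners were lower and 1 higher in PTZ cells, against 10.2% and 4.72% of all genes. Ap2b1 was at 3.52 ± 2.83 in PTZ and 5.85 ± 2.22 in saline cells, and Cltc at 4.77 ± 2.67 and 6.28 ± 1.45. Grin2a, an NMDA receptor subunit, was also lower, by -1.29, and Sh3gl1, an endophilin gene, was higher by 1.45.

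Among the 18 genes that handle Arc mRNA, 2 were higher in FOS+ nuclei and 0 lower, against 4.21% and 5.28% of all genes. With so few genes these counts are a description. Upf1, the helicase of nonsense-mediated decay, was at 3.34 ± 2.5 against 1.05 ± 1.71 and was detected in 28 of 40 and 13 of 41 nuclei. Hnrnpa2b1, an RNA-binding protein of dendritic transport granules, was at 7.94 ± 1.83 against 5.47 ± 3.39. The other decay factor read, Upf2, differed by -0.78, and the exon junction genes Eif4a3, Magoh, Rbm8a and Casc3 by -0.27, 1.19, 0.60 and 0.21. Within FOS+ nuclei the rho with Arc was 0.35 for Upf1 and 0.36 for Hnrnpa2b1. In whole cells the cap-binding factor Eif4e, the export receptor Nxf1 and the double-stranded RNA-binding Stau2 were lower in PTZ cells, by -1.80, -1.51 and -1.23, but none of these passed when all cells of the tables were read, and the kinesin Kif5a was higher by 1.10. Of the 18 genes 3 were thus lower and 1 higher, against 10.2% and 4.72% of all genes.

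Of the 6 genes of ARC protein turnover, Rnf216, an E3 ligase that ubiquitinates ARC, was lower in FOS+ nuclei, at 0.82 ± 2.06 against 1.89 ± 2.69, and was found in 7 of 40 and 15 of 41 nuclei; it did not pass when all nuclei of the tables were read. Ube3a, the ligase gene of Angelman syndrome, differed by -0.20. Of these 6 genes 1 was thus lower and 0 were higher, against 5.28% and 4.21% of all genes. Of the 13 other genes derived from gag, only 4 were read in nuclei. Of these 1 was higher and 1 lower, against 4.21% and 5.28% of all genes, and with so few genes the counts are a description. Rtl1 was higher in FOS+ nuclei, at 2.26 ± 2.81 against 0.69 ± 1.51, Pnma2 was lower, at 0.56 ± 1.56 against 1.78 ± 2.93, and none of the 7 read in whole cells passed. Zcchc18 differed by -2.26 between the nuclei but had the opposite sign in 1 condition.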

How the data were processed

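The authors deposited 3 pairs of tables, one each for 82 whole cells, 96 NE nuclei and 23 HC nuclei. Reads were trimmed and aligned by the authors to mm10 with Ensembl genes by RSEM with Bowtie (version 1.0.0 per the labels), and each pair holds the deposited expected counts per gene, not normalized, and the deposited TPM values, which the authors' RSEM scaled for gene length and depth. Here log2(TPM + 1) was analysed. Cells were kept with a total above 50000 counts and a gene number (TPM above 1) over the table's mean minus 2 SD, and all HC nuclei were kept; the study also used a spike-in criterion, not applied here, so the kept cells are not its exact set. Totals and precision are in the report. As no label names animals, groups were compared by means, SDs and shares without tests, unlike the study's edgeR tests. The alternatives are given under the limits. TMM factors came from edgeR 4.0.16 (R 4.3.3), and the rest from Python 3.11.15, pandas 2.3.3, numpy 2.4.6 and SciPy 1.17.1. The difference and call scripts were tested on simulated data. Arc and the lists were chosen with earlier results of these data known. Genes named were Arc, Prox1 and Rbfox3, early genes in joint detection, the 10 genes of highest mean rho and the 5 highest per group, and, per list, members past the limit or, with none, the 3 largest differences; other members named for contrast were chosen after their values were seen. Arc had no entry in the promoter table. One list member is not reported here.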

Additional observations from a re-analysis of the deposited data

Results flagged for a closer look

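Arc also appeared in libraries that were set aside for low depth. Of the 9 saline cells not kept, 3 held Arc above 1 TPM, at up to 1367 TPM, and of the 5 PTZ cells not kept 2 did, at up to 1155 TPM. Of the 8 FOS+ nuclei not kept 2 did, at up to 82.6 TPM, and of the 7 FOS- nuclei not kept 1 did, at 80.5 TPM, which is above every kept FOS- nucleus. Each of these TPM values rests on 1 to 4 Arc counts in libraries of 349 to 17272 counts, so that 1 read alone makes a high TPM.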

How the results depend on the processing

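The Arc difference between FOS+ and FOS- nuclei kept its sign under all 8 alternatives run: it ran from 4.26 with a pseudocount of 10 to 9.0 with 0.1, was 5.66 over all cells of the tables and 6.52 to 6.81 with single nuclei left out, and was 12.7 as the log2 ratio of mean TPM. The PTZ minus saline difference stayed negative under the alternatives run, from -1.29 to -0.78 with single cells left out and at -0.73 over all cells. Only a pseudocount of 0.1 (-1.05) and single cells left out took it past 1 log2 unit. The CPM of the summed counts, which was not among these alternatives, had the other sign, at 879 in PTZ and 709 in saline cells. The levels of the near-silent groups followed the pseudocount, to -3.07 and 3.33 in FOS- nuclei and -3.09 and 3.34 in HC nuclei with 0.1 and 10. Arc at a count of at least 5 was found in 26.7% of PTZ cells, and in 0% of FOS- and HC nuclei, as it was above 5 TPM; thinning gave 0% in FOS- nuclei, and leaving out single nuclei gave 0 to 2.5% in FOS- and 0 to 4.55% in HC nuclei. Of the 10 genes most like Arc, 5 stayed among the first 10 in cells with Arc above 1 TPM. Counts of genes past the limit depended on the settings. Higher in FOS+ nuclei were 196 at 2 log2 units, 280 with a pseudocount of 10, 366 over all cells and 934 without the requirement on conditions, and 556 as reported; lower were 103, 202 and, without the requirement, 1271, and 698 as reported. Higher in PTZ cells were 23 at 2 log2 units, 43 with a pseudocount of 10 and 1397 with 0.1, and 541 as reported; lower were 80, 195, 2288 and, over all cells, 486, and 1165 as reported. Of 224 alternative values of the list counts, 47 moved, either by over 1.5 times or away from a reported count of 0. Leaving out the 7 cells rich in markers of other types, an alternative chosen after seeing the data, gave 6.63 and -0.90 for the Arc differences. The cause of these changes was not tested. Pooled animals and totals down to 63775 counts limit what low values can show. No paired analysis was possible because each sample is 1 cell and a shared number pairs no cells; the nuclei share amplification conditions, within which the differences are given.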
